A study of Homo sapiens with 16 samples.

Results

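Expression of 9 genes of the MHC class I pathway was described across 4 human immune cancer lines, each untreated or stimulated for 4 hours. The genes are HLA-B, HLA-C, HLA-E, HLA-F, B2M, TAP1, TAP2, PSMB8 and PSMB9. They were taken by symbol from the 27311 genes of the deposited tables, and all 9 were found. Their levels below are in TPM, transcripts per 1000000, which adjusts for transcript length and library size. Jurkat is of T cell origin, BJAB of B cell origin, and both THP-1 and U937 are of monocytic origin. Cells other than THP-1 were labelled wild type. The THP-1 cells, treated and untreated, were labelled with dCas9-KRAB, a cutting-deficient Cas9 fused to a repressor domain, whose promoter is not given in the sources used here. Both monocytic lines received lipopolysaccharide (LPS), a bacterial cell wall component sensed through TLR4, with a dose of 1 µg/ml for THP-1 and 200 ng/ml for U937. Jurkat was treated with 5 µg/ml anti-CD3 plus 100 ng/ml of PMA, a phorbol ester that activates protein kinase C. BJAB was treated with 10 µg/ml anti-IgM plus 4 µg/ml anti-CD40. There were 2 libraries in every one of the 8 groups. Whether they came from separate cultures is not labelled, so p-values and errors measure only the spread between these libraries, which may be technical.

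MHC class I molecules display peptides from inside the cell to CD8 T cells and to receptors of natural killer cells. A heavy chain (HLA-B, HLA-C, HLA-E or HLA-F here) pairs with the light chain β2-microglobulin, encoded by B2M. The peptides are cut by the proteasome, and the subunits encoded by PSMB8 and PSMB9 replace the constitutive subunits PSMB5 and PSMB6 to form the immunoproteasome. TAP1 and TAP2 form the transporter that moves the peptides into the endoplasmic reticulum, where a loading complex fits them to the heavy chain. Many of these genes are known to be switched on by interferons through IRF factors, by NF-kB and by the coactivator NLRC5.

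The start regions of the genes are shown first, since HLA-B, HLA-C and HLA-F are close relatives whose values differed between the lines. The sequences are RefSeq promoter windows of build GRCh38.p14, from 250 bases before the annotated start to 50 after it, each read 5′ to 3′ on the gene's own strand. RefSeq windows were matched for 8 of the 9 genes, and HLA-E is named only. The windows of HLA-B (chr6:31357130-31357429, minus strand), HLA-C (chr6:31272043-31272342, minus strand), HLA-F (chr6:29723184-29723483, plus strand) and TAP1 (first entry, chr6:32853655-32853954, minus strand) follow. Capitals mark matches, on either strand, to the NF-kB consensus, to the IRF core GAAANNGAA, to the CCAAT box and to the CRE-like TGACGC.
HLA-B: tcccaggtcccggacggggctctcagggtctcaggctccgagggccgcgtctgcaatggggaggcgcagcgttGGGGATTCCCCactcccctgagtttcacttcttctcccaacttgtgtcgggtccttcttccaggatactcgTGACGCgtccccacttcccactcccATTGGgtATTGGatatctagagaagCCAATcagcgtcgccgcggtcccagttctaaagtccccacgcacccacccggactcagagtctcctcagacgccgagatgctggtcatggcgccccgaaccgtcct
HLA-C: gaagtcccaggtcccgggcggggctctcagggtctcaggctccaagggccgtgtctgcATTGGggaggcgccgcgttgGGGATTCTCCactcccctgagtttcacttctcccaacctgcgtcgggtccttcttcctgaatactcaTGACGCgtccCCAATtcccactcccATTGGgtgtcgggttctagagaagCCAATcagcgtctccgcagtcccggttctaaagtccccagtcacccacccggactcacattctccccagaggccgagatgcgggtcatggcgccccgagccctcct
HLA-F: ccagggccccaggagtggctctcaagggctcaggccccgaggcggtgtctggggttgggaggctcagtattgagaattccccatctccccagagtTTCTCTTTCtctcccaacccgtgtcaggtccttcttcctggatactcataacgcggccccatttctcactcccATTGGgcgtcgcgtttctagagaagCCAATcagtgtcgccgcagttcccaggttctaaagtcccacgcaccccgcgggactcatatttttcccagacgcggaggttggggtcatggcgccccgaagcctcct
TAP1: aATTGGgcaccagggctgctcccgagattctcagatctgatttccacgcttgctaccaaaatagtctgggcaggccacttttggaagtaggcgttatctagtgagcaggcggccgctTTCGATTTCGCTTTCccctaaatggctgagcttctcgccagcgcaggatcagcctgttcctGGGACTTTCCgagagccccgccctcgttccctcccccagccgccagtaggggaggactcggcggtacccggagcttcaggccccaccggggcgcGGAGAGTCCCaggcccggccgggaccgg

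The windows of HLA-B and HLA-C were identical at 88.5% of aligned positions, those of HLA-B and HLA-F at 79.2%, and those of HLA-C and HLA-F at 78.5%. An NF-kB consensus match stood in the windows of HLA-B, HLA-C, B2M and TAP1, and in 5.9% of all 35116 RefSeq windows. In HLA-B, 2 such matches overlap within the first capitalised run. In TAP1 the match upstream of the start is GGGACTTTCC. The HLA-F window held no match to the NF-kB consensus and 1 to the IRF core. The IRF core was matched in HLA-F, B2M, TAP1, TAP2 and PSMB8, and in 8.1% of all windows. TAP1 and PSMB8 have 2 windows each, and in PSMB8 only the second held the match. In TAP1 and in B2M, 2 matches overlap. Only exact matches to the letters were sought, so a window without a match may hold a variant of it. CCAAT was matched in HLA-B, HLA-C, HLA-F, B2M, TAP1 and PSMB9, and in 34.6% of all windows. TGACGC was matched in HLA-B, HLA-C and TAP2, and in 9.1% of all windows. TAP1 and PSMB9 lie head to head: the PSMB9 window (chr6:32853942-32854241, plus strand) shares 13 bases with that of TAP1. These matches describe the letters of the windows, not binding.

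The libraries held between 3317689 and 8432224 reads, recovered as whole numbers from the steps of the TPM values, and 12731 to 15013 genes above 0. Of 11 monocytic markers, 11 were above 1 TPM in untreated THP-1 and 9 in U937, where CD14 was at 0. In Jurkat 10 of 10 T cell markers and in BJAB 10 of 10 B cell markers were above 1 TPM. Markers of other lineages were also present. Monocytic markers were above 1 TPM for 5 of 11 in BJAB (summed 113 to 133 TPM, mostly CD33 and SPI1, with MPO and PRTN3 at 0) and for 2 of 11 in Jurkat (488 to 493 TPM, nearly all CTSG, with SPI1 and CSF1R at 0). B cell markers were above it for 3 of 10 in each of Jurkat (164 to 189 TPM, mostly CD79A, with PAX5 at 0), THP-1 and U937, where their sum was at most 25.5 TPM and MS4A1 was at 0. T cell markers were above it for 3 of 10 in BJAB (92.3 to 94.7 TPM, with CD2 at 0) and 0 of 10 in THP-1 and U937. Their part in the differences between lines was not tested. In both U937 and BJAB the first stimulated library stood apart. The SD over genes of the log2 difference between paired libraries was 0.89 in U937 after LPS and 0.96 in stimulated BJAB, against 0.35 to 0.46 in the other 6 groups. ACTB, the beta-actin gene, was at 3779 TPM in the first and 8785 TPM in the second LPS library of U937. In stimulated BJAB it was at 1858 and 7488 TPM. Over all tested genes, the median log2 difference was -0.25 for U937 after LPS and -0.14 for stimulated BJAB, and -0.03 for stimulated Jurkat.

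Sequence sharing bears on some of the members. The files hold uniquely aligned reads, and heavy chain genes share sequence. Of all 31-base words of the GENCODE 29 transcript, 84.4% occurred in no other gene for HLA-B, 79.8% for HLA-C, 88.5% for HLA-E and 92.1% for HLA-F. It was 19.6% for TAP2, which is overlapped by another annotated gene, so the levels of TAP2 and of the heavy chains are uncertain. The share was 98.3% for TAP1 and 100.0% for B2M, PSMB8 and PSMB9. These words were compared between transcripts, not with the hg19 genome to which the reads were aligned. A high share thus does not show that a gene lost no reads. How alleles that differ from the reference align was not tested, nor whether reads of any member align to several places in hg19.

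Before stimulation, the 4 lines differed in heavy chains, transporter and immunoproteasome. HLA-B was lowest in Jurkat, HLA-C highest in U937, and HLA-E higher in the monocytic lines than in BJAB. Nearly all HLA-F reads were from Jurkat, which also had the highest PSMB9. BJAB had the lowest TAP2 and PSMB8. Over the 6 pairs of lines and the 8 genes other than HLA-F, 24 of 48 comparisons passed an adjusted p of 0.05 in limma, beside 25.9% to 35.5% of all tested genes in the same pairs. HLA-F is left out of this count, since it entered the tests only through Jurkat. The test was a model of log2(TPM + 1) over all 16 libraries with Benjamini-Hochberg adjustment over 14398 tested genes, and its log2 differences understate the change of genes at low levels.

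HLA-B, a classical heavy chain, was at 17.4 and 21.6 TPM in Jurkat, 58.4 and 59.0 in BJAB, 44.1 and 44.4 in THP-1 and 70.2 and 59.8 in U937. Both Jurkat libraries were below all 6 others. Jurkat was lower than U937 (U937 minus Jurkat log2 difference 1.69 ± 0.22 (SE), adjusted p = 7.57e-05), than BJAB (Jurkat minus BJAB -1.55, adjusted p = 0.000136) and than THP-1 (THP-1 minus Jurkat 1.15, adjusted p = 0.00129). U937, BJAB and THP-1, in that order, did not differ past the threshold.

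HLA-C, the other classical heavy chain here and a ligand of killer cell receptors, was at 20.4 and 22.5 TPM in Jurkat, 19.3 and 21.7 in BJAB, 15.4 and 14.7 in THP-1 and 42.4 and 39.4 in U937. U937 was above the other lines without overlap. It was higher than THP-1 (THP-1 minus U937 -1.38 ± 0.30, adjusted p = 0.00456), BJAB (U937 minus BJAB 0.96, adjusted p = 0.0254) and Jurkat (U937 minus Jurkat 0.90, adjusted p = 0.0357). Jurkat, BJAB and THP-1 did not differ past the threshold from each other. With any 1 of the 4 compared libraries left out, the difference from Jurkat (adjusted p = 0.102 to 0.159) and that from BJAB (0.074 to 0.131) no longer passed.

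HLA-E, which displays mainly leader peptides of other class I chains to natural killer cells, was at 7.14 and 7.25 TPM in Jurkat, 5.25 and 5.14 in BJAB, 21.4 and 19.1 in THP-1 and 15.8 and 16.3 in U937. The order THP-1, U937, Jurkat, BJAB had no overlap, but no neighbouring lines in it differed past the threshold. THP-1 was higher than Jurkat (1.37 ± 0.38, adjusted p = 0.0151) and BJAB (1.78, adjusted p = 0.00317), and U937 was higher than BJAB (1.46, adjusted p = 0.0112). U937 against Jurkat gave 1.06 with an adjusted p of 0.0545. With any 1 of the 4 compared libraries left out, THP-1 minus Jurkat (adjusted p = 0.0563 to 0.0867) and U937 minus BJAB (0.0533 to 0.0587) no longer passed.

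HLA-F, a nonclassical heavy chain, was represented by 14 and 18 reads (0.684 and 1.10 TPM) in untreated Jurkat. It had 0 reads in both THP-1 libraries, 0 and 1 in U937, and 0 and 1 in BJAB. A count of 0 allows up to 3 reads, which is 0.158 and 0.136 TPM in the untreated THP-1 libraries, counting error alone. Against the higher of these limits, the Jurkat mean was 5.64-fold higher, which leaves out the counting error and spread of Jurkat itself. HLA-F passed the filter on low values only through Jurkat, so a gene with this pattern had to differ, and its levels are a description with no test.

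B2M was the most abundant member in every library. It was at 3730 and 3265 TPM in Jurkat, 3477 and 2957 in BJAB, 3429 and 3290 in THP-1 and 5642 and 5101 in U937. U937 was above the others without overlap, and 0 of the 6 pairs passed the threshold in limma, with an unadjusted p under 0.05 in the 3 pairs that involve U937. The lowest adjusted p was 0.0505, for U937 minus BJAB (log2 difference 0.74 ± 0.27). Under other settings U937 was called higher than THP-1 in 5 of 15 alternatives (lowest adjusted p = 0.000159), than BJAB in 6 (0.000127) and than Jurkat in 3 (0.000384). These included library weights and the fit without the first stimulated library of both U937 and BJAB. B2M was between 34.4 and 44.1 times the summed TPM of the 4 heavy chain members in untreated THP-1, U937 and BJAB, and 81.8 and 62.4 times in untreated Jurkat, where that sum was lowest (45.6 and 52.4 TPM). Heavy chain genes outside the 9 members were not counted in this sum, and reads lost for not aligning uniquely were not corrected for.

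TAP1 was at 7.01 and 5.56 TPM in Jurkat, 1.56 and 1.60 in BJAB, 5.30 and 5.91 in THP-1 and 2.97 and 3.63 in U937. BJAB was lower than Jurkat (Jurkat minus BJAB 1.49 ± 0.45, adjusted p = 0.0254) and THP-1 (1.35, adjusted p = 0.0358). Jurkat, THP-1 and U937 did not differ past the threshold. Both differences from BJAB were lost with any 1 compared library left out (adjusted p = 0.07 to 0.137 for Jurkat and 0.107 to 0.144 for THP-1) and with a pseudocount of 0.1 (0.135 and 0.157). That from Jurkat was also lost with quantile normalization (0.0548) and that from THP-1 with no filter on low values (0.0524). TAP2, its partner, was at 1.83 and 1.36 TPM in Jurkat, 0.0972 and 0.134 in BJAB, 3.34 and 3.67 in THP-1 and 0.933 and 1.23 in U937. The BJAB values rested on 14 and 21 reads. THP-1 was higher than U937 (1.12 ± 0.20, adjusted p = 0.00137), Jurkat (0.80, adjusted p = 0.00797) and BJAB (2.01, adjusted p = 6.75e-06). BJAB was also lower than Jurkat (1.21, adjusted p = 0.000501) and U937 (0.90, adjusted p = 0.0041), while U937 and Jurkat did not differ past the threshold. THP-1 minus Jurkat was lost without the second untreated library of THP-1 (adjusted p = 0.0512) or of Jurkat (0.0703), and with a pseudocount of 0.1 (0.0589). The ratio of TAP1 to TAP2 was 3.83 and 4.08 in Jurkat, 16.1 and 11.9 in BJAB, 1.59 and 1.61 in THP-1 and 3.18 and 2.94 in U937. The transporter subunits were thus in unequal proportion across the lines, with the limit on TAP2 given above.

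PSMB8 was at 38.1 and 33.3 TPM in Jurkat, 14.3 and 13.5 in BJAB, 59.3 and 59.1 in THP-1 and 44.6 and 45.3 in U937. The order had no overlap. THP-1 was higher than Jurkat (0.72 ± 0.25, adjusted p = 0.0426), and BJAB was lower than THP-1 (2.01, adjusted p = 4.47e-05), U937 (1.62, adjusted p = 0.000291) and Jurkat (1.30, adjusted p = 0.00156). THP-1 minus Jurkat was lost with any 1 compared library left out (adjusted p = 0.0959 to 0.199). PSMB9 had another order. It was at 33.9 and 33.2 TPM in Jurkat, 7.59 and 4.73 in BJAB, 14.4 and 15.9 in THP-1 and 10.8 and 11.1 in U937. Jurkat was higher than BJAB (2.30 ± 0.37, adjusted p = 0.0004), U937 (U937 minus Jurkat -1.53, adjusted p = 0.00694) and THP-1 (THP-1 minus Jurkat -1.10, adjusted p = 0.0361). THP-1 was higher than BJAB (1.20, adjusted p = 0.0234). Median-of-ratios scaling ended the PSMB9 calls of Jurkat against U937 (adjusted p = 0.061) and THP-1 (0.227) and of THP-1 against BJAB (0.0797). Quantile normalization ended those of Jurkat against THP-1 (adjusted p = 0.153) and of THP-1 against BJAB (0.124). The call of Jurkat against THP-1 was also lost with any 1 compared library left out (0.105 to 0.155), and that of THP-1 against BJAB without any 1 except the first BJAB library (0.0787 to 0.177). By mean TPM, the immunoproteasome subunits ranked the lines differently, with THP-1 first for PSMB8 and Jurkat first for PSMB9.

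The counts of the 8 members other than HLA-F are given beside those over all tested genes. For THP-1 minus U937, 2 of 8 were called (TAP2 higher, HLA-C lower) and 25.9% of all tested genes. For THP-1 minus Jurkat it was 5 of 8 and 35.1%, and for THP-1 minus BJAB 5 of 8, all higher in THP-1, and 35.5%. For U937 minus Jurkat it was 3 of 8 and 32.6%, close to that background, for U937 minus BJAB 4 of 8, all higher in U937, and 33.9%, and for Jurkat minus BJAB 5 of 8 and 31.8%. With any 1 compared library left out, the count was 2 for THP-1 minus U937, 1 to 2 for THP-1 minus Jurkat, 3 to 4 for THP-1 minus BJAB, 2 for U937 minus Jurkat, 2 for U937 minus BJAB and 4 for Jurkat minus BJAB. The median log2 difference of the 8 was 1.28 for THP-1 minus BJAB, 0.83 for U937 minus BJAB and 0.81 for Jurkat minus BJAB, beside 0.02, 0.00 and 0.15 over all tested genes. It was 0.35 for THP-1 minus U937, 0.33 for THP-1 minus Jurkat and 0.47 for U937 minus Jurkat, beside 0.00, -0.15 and -0.14. With HLA-F included these last 3 medians were 0.32, -0.06 and 0.33, so that for THP-1 minus Jurkat the sign depended on HLA-F.

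**Figure D1:**
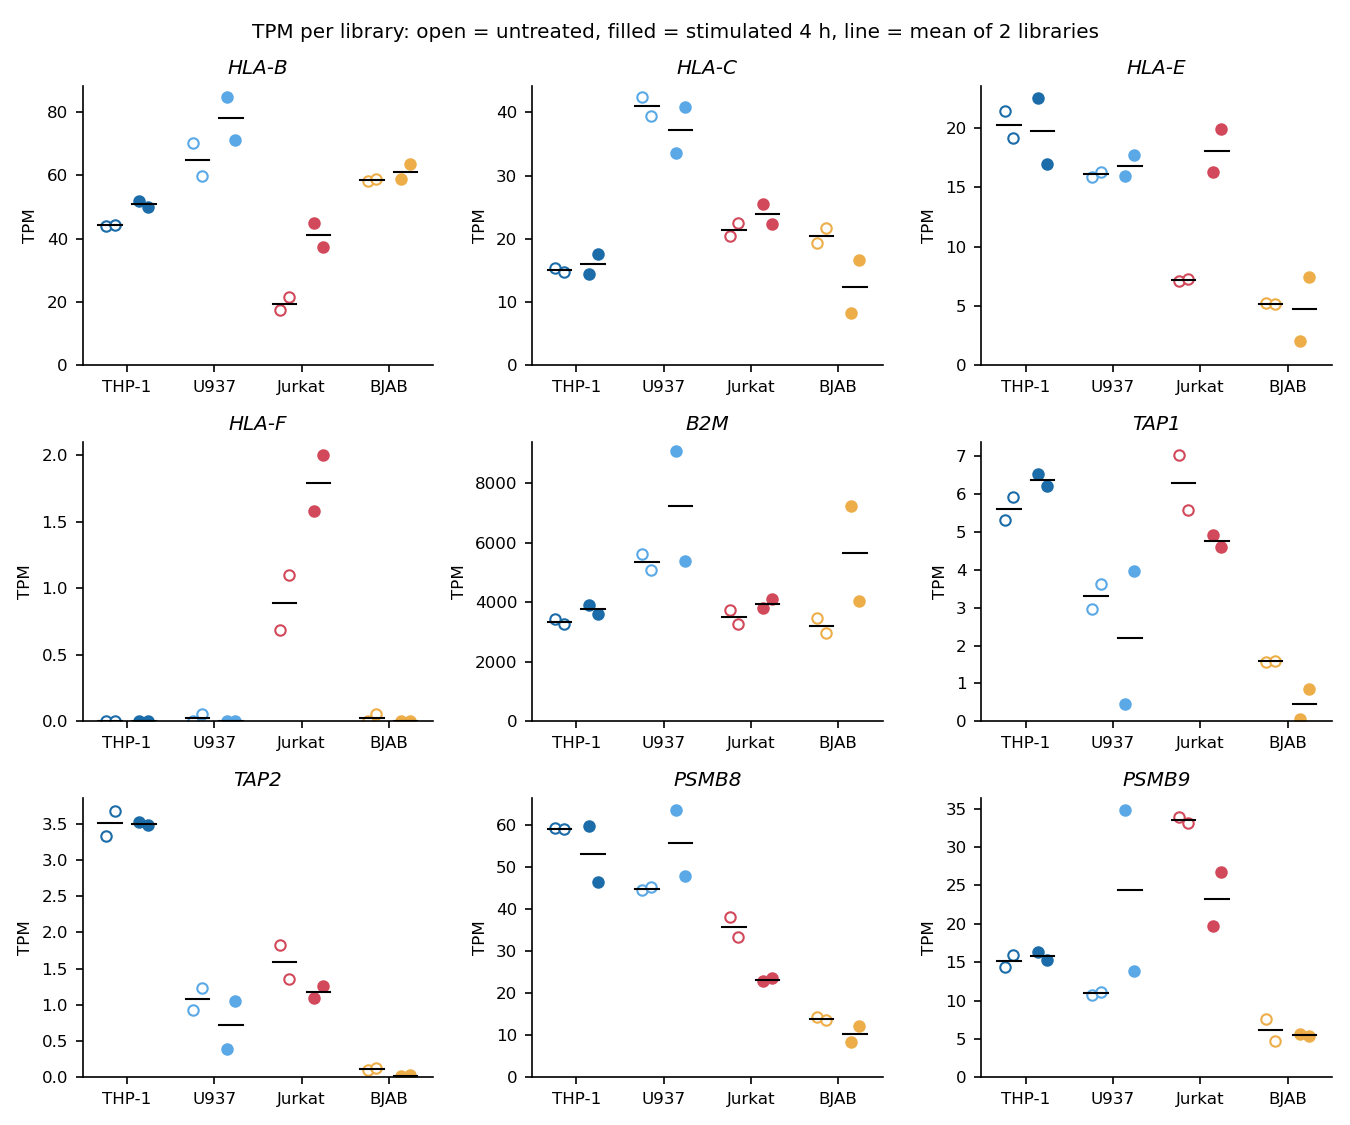
TPM of each of the 9 genes (vertical axes, linear, each from 0) in the 2 libraries of every group; open points are untreated, filled points are stimulated for 4 hours, and lines are group means. HLA-B is lowest in untreated Jurkat (17.4 and 21.6 TPM), HLA-F is above 1 read in Jurkat alone, and the filled points of U937 and BJAB are far apart for B2M and TAP1.

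After stimulation, HLA-B rose in Jurkat, HLA-F had more reads in both stimulated libraries, HLA-E was higher in both stimulated libraries without passing, and the immunoproteasome genes PSMB8 and PSMB9 were lower in both without passing. In limma 1 of the 8 members other than HLA-F was called (HLA-B, higher), while 4.87% of all tested genes were called, 3.02% higher and 1.85% lower. These 8 had a median log2 difference of -0.05, against -0.03 over all tested genes, and with HLA-F the median of the 9 was 0.15.

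HLA-B went from 17.4 and 21.6 TPM to 45.0 and 37.5 TPM, and both stimulated libraries lay above both untreated ones. The log2 difference was 1.05 ± 0.22 (SE; 95% interval 0.57 to 1.52; adjusted p = 0.0148). The stimulated mean, 41.2 TPM, was near the untreated THP-1 mean of 44.2. The call was lost in 5 of 15 alternatives, among them median-of-ratios scaling (adjusted p = 0.0789) and the fits without the first untreated (0.169), the first stimulated (0.155) or the second stimulated Jurkat library (0.0579). The log2 difference stayed between 0.90 and 1.19 over the alternatives run.

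HLA-F went from 14 and 18 reads to 30 and 38 reads, or from 0.684 and 1.10 TPM to 1.58 and 2.00 TPM. The groups did not overlap, and the log2 difference was 0.56 ± 0.14 (adjusted p = 0.0421). Since the gene was tested only because Jurkat carried it past the filter, this p is no support for a rise. The p was above the threshold in 9 of 14 alternatives, among them a pseudocount of 0.1 (adjusted p = 0.284), quantile normalization (0.146), median-of-ratios scaling (0.0504), no trend (0.121) and a fit of the Jurkat libraries alone (0.253). It was also above without the first untreated, the first stimulated or the second stimulated Jurkat library. Over all alternatives the log2 difference ran from 0.20 to 0.95. In the 12 libraries of the other lines HLA-F never exceeded 1 read.

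HLA-E went from 7.14 and 7.25 TPM to 16.3 and 19.9 TPM. The stimulated libraries were clear of the untreated ones, and the fold on the fitted scale (log2 difference 1.21 ± 0.38) was above that of HLA-B, yet the adjusted p was 0.126. The difference passed in 5 of 15 alternatives and not in the other 10, with log2 differences from 0.92 to 1.35. The pooled fit also held the stimulated BJAB libraries, at 2.02 and 7.42 TPM, and their part in this p was not tested. A fit of the Jurkat libraries alone was among the 5 that passed (adjusted p = 0.00782). Median-of-ratios scaling and no trend were among the 10 that did not.

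HLA-C and the light chain gene did not pass the threshold in Jurkat. HLA-C was at 20.4 and 22.5 TPM untreated and 25.5 and 22.3 stimulated, with overlap (log2 difference 0.15, 95% interval -0.50 to 0.80). B2M was at 3730 and 3265 TPM untreated and 3827 and 4102 stimulated (0.18, interval -0.40 to 0.77). HLA-C shares 88.5% of its promoter window with HLA-B, as shown above, and the difference between their responses was not tested. The share of HLA-B in the summed heavy chain members went from 38.1% and 41.2% to 50.9% and 45.9%, and the ratio of B2M to that sum from 81.8 and 62.4 to 43.3 and 50.2.

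The peptide supply genes had lower mean TPM in stimulated Jurkat, without passing the threshold. PSMB8 was at 38.1 and 33.3 TPM untreated and 22.9 and 23.5 stimulated (log2 difference -0.60 ± 0.25, adjusted p = 0.309). It was called lower in 2 of 15 alternatives and not in the other 13. The 2 were library weights (adjusted p = 0.0133) and the fit without the first stimulated library of both U937 and BJAB. PSMB9 was at 33.9 and 33.2 TPM untreated and 19.7 and 26.7 stimulated (-0.53 ± 0.37, adjusted p = 0.732). TAP1 was at 7.01 and 5.56 TPM untreated and 4.91 and 4.61 stimulated (-0.33, interval -1.33 to 0.66), and TAP2 at 1.83 and 1.36 untreated and 1.09 and 1.27 stimulated (-0.25, interval -0.68 to 0.19). In all 4 genes both stimulated libraries were below both untreated ones. How many of all tested genes separate in this way was not counted, so this is a description only. In bulk RNA, a change in some of the cells and a smaller change in all of them cannot be told apart.

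The proteasome subunits were also set against the constitutive subunits they replace, which cancels any scaling of a whole library. Reads of a gene lost for not aligning uniquely were not corrected for. The ratio of PSMB8 to PSMB5 was 0.0817 and 0.0829 in untreated Jurkat and 0.0582 and 0.0552 after stimulation. That of PSMB9 to PSMB6 was 0.0395 and 0.0402 untreated and 0.0244 and 0.0265 stimulated. Both ratios were lower after stimulation with pairs of libraries close together; no test was made of them. Untreated THP-1 had the highest PSMB8 to PSMB5 ratio (0.134 and 0.137) and BJAB the lowest (0.0237 and 0.0269). For PSMB9 to PSMB6, BJAB was again lowest, at 0.00785 and 0.00554.

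**Figure D2:**
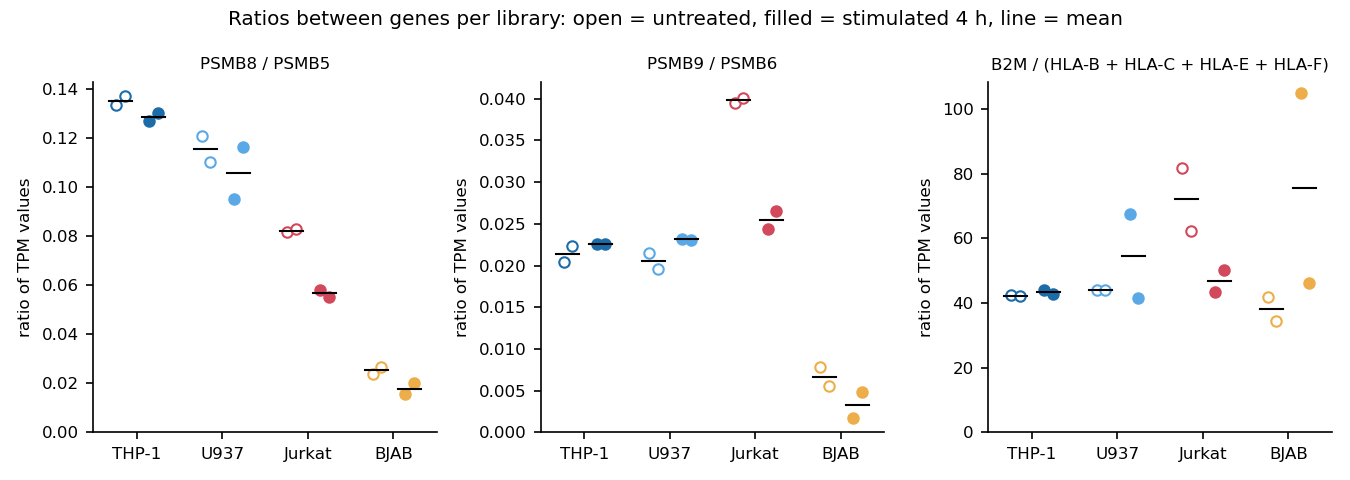
Ratios of TPM values per library (vertical axes, linear, from 0): PSMB8 to PSMB5, PSMB9 to PSMB6, and B2M to the summed heavy chain members; open points are untreated, filled points stimulated, and lines are means of 2 libraries. Both subunit ratios are lower in stimulated than in untreated Jurkat, and the first stimulated BJAB library stands apart in the B2M ratio at 105.

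In THP-1, the LPS and untreated values of the 9 genes lay close together. No member was called by limma, beside 0.167% of all tested genes. None had an unadjusted p under 0.05, beside 522 of all 14398 tested genes. HLA-B was at 44.1 and 44.4 TPM untreated and 52.1 and 49.9 after LPS, without overlap (log2 difference 0.20 ± 0.22, 95% interval -0.27 to 0.67). B2M was at 3429 and 3290 TPM untreated and 3908 and 3620 after LPS (0.16, interval -0.42 to 0.75), and TAP1 at 5.30 and 5.91 untreated and 6.51 and 6.21 after LPS (0.16, interval -0.84 to 1.15). These 3 were the members higher in both LPS libraries, and the share of all tested genes that separate in this way was not counted. HLA-C (14.4 and 17.6 TPM after LPS), HLA-E (22.5 and 16.9), TAP2 (3.52 and 3.48), PSMB8 (59.9 and 46.4) and PSMB9 (16.3 and 15.3) overlapped their untreated values. HLA-F had 0 reads in all 4 THP-1 libraries.

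In U937, no member was called after LPS by limma, beside 0.0278% of all tested genes. At an unadjusted p under 0.05 there was 1 of 9 members (PSMB9), beside 2176 of all 14398 tested genes. PSMB9 was at 10.8 and 11.1 TPM untreated and 34.9 and 13.8 after LPS, and most of the difference lay in the first LPS library (log2 difference 0.95 ± 0.37, adjusted p = 0.329). The same library carried PSMB6 at 1501 TPM against 598 in its partner. The PSMB9 to PSMB6 ratio was 0.0215 and 0.0197 untreated and 0.0232 and 0.0231 after LPS. That of PSMB8 to PSMB5 was 0.121 and 0.110 untreated and 0.0950 and 0.117 after LPS. B2M was at 9089 and 5393 TPM after LPS against 5642 and 5101 untreated, and PSMB8 at 63.7 and 47.8 against 44.6 and 45.3. TAP1 was at 0.452 TPM (42 reads) in the first and 3.96 TPM (354 reads) in the second LPS library, against 2.97 and 3.63 TPM untreated. TAP2 showed the same split at 0.390 and 1.05 TPM. HLA-B was at 84.9 and 71.1 TPM (untreated 70.2 and 59.8), HLA-C at 33.5 and 40.9, and HLA-E at 15.9 and 17.7. Without the first LPS library no member was called in U937. Without the second, resting on the first alone, 4 were called (B2M and PSMB9 higher, TAP1 and TAP2 lower).

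In BJAB, no member was called after anti-IgM and anti-CD40 by limma, beside 6.40% of all tested genes. At an unadjusted p under 0.05 there were 2 of 9 members (B2M and HLA-C), beside 3481 of all 14398 tested genes. HLA-B was at 58.4 and 59.0 TPM untreated and 58.8 and 63.5 stimulated (log2 difference 0.06 ± 0.22, 95% interval -0.42 to 0.53). HLA-C was at 19.3 and 21.7 TPM untreated and 8.21 and 16.7 stimulated (-0.75 ± 0.30, adjusted p = 0.152). HLA-E was at 5.25 and 5.14 TPM untreated and 2.02 and 7.42 stimulated, on either side of the untreated values. B2M was at 3477 and 2957 TPM untreated and 7242 and 4057 stimulated (0.76 ± 0.27, adjusted p = 0.114). For these genes the first stimulated library was the one farther from the untreated pair, except for HLA-B. TAP1 was at 1.56 and 1.60 TPM untreated and 0.0611 and 0.846 stimulated, or 115 and 128 reads against 6 and 79 (-0.88 ± 0.45, adjusted p = 0.257). TAP2 had 14 and 21 reads untreated and 4 and 5 reads stimulated, without overlap, a log2 difference of -0.12 on the log2(TPM + 1) scale, which hardly registers a change at this level (adjusted p = 0.82). PSMB8 was at 14.3 and 13.5 TPM untreated and 8.35 and 12.1 stimulated, and PSMB9 at 7.59 and 4.73 untreated and 5.60 and 5.34 stimulated. Without the first stimulated library no member was called in BJAB. Without the second, 3 were called (B2M higher, HLA-C and HLA-E lower).

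**Figure D3:**
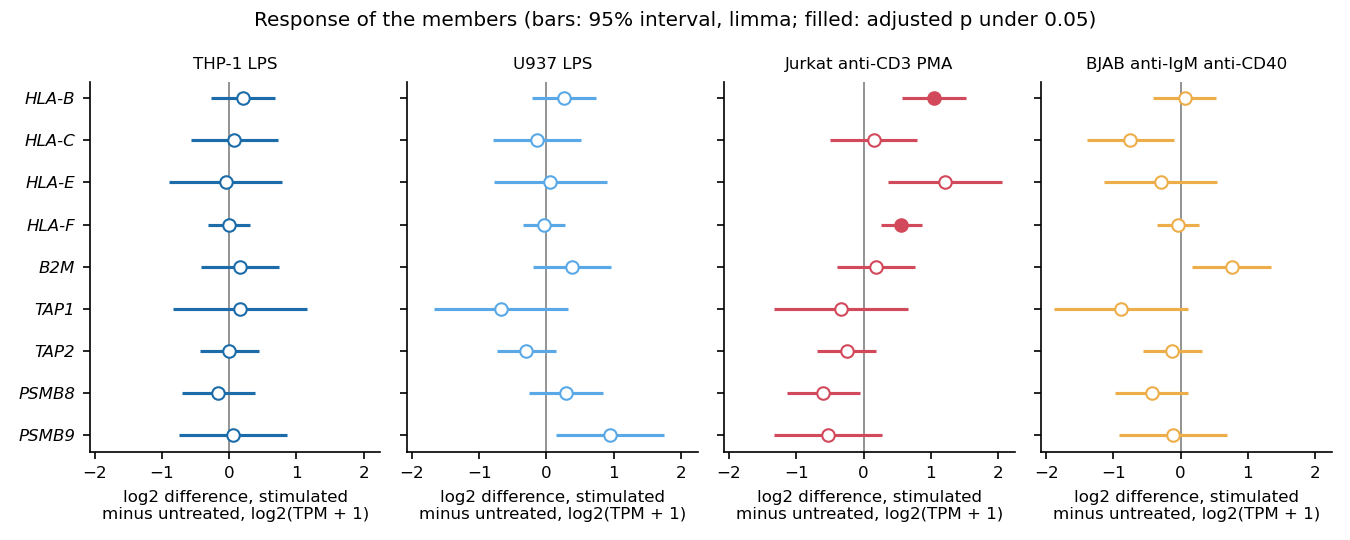
Log2 difference, stimulated minus untreated, on the log2(TPM + 1) scale (horizontal axis) for the 9 genes (vertical axis) in the 4 lines; bars are 95% intervals from limma, and filled points have an adjusted p under 0.05. HLA-B (1.05) and HLA-F (0.56) in Jurkat are the filled points, HLA-F being in the tests through Jurkat alone; HLA-E (1.21) in Jurkat has a wide interval.

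The differences between responses were tested directly. For the LPS response, THP-1 minus U937, no member was called by limma, beside 0.0486% of all tested genes. None had an unadjusted p under 0.05, beside 891 of all 14398 tested genes. Dose and genotype also differ between these lines. For Jurkat minus BJAB, no member was called, beside 5.24% of all tested genes. At an unadjusted p under 0.05 in limma there were 3 of 9 members, beside 2399 of all 14398 tested genes. HLA-B had a difference in response of 0.99 ± 0.30 with an adjusted p of 0.0996 and HLA-E 1.51 ± 0.54 (adjusted p = 0.169). The other was HLA-F, with the limit given above. Without the first stimulated library of both U937 and BJAB the HLA-B difference passed (0.94, adjusted p = 0.0295). The HLA-B rise in Jurkat was thus not shown to differ from the response of BJAB with all libraries in the fit.

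Other genes of the pathway were counted by list. The loading complex and peptide trimming list (TAPBP, TAPBPL, CALR, CANX, PDIA3, ERAP1, ERAP2 and LNPEP) had 0 of 8 genes called in each stimulation. So had the list of PSMB10, the proteasome activator subunits PSME1 to PSME3 and POMP (0 of 5), and the 14 constitutive 20S core genes (0 of 14). At an unadjusted p under 0.05 in limma, the 3 lists together had 0 of 27 genes in THP-1, 6 in U937, 1 in Jurkat and 5 in BJAB. Over all 14398 tested genes the numbers were 522 in THP-1, 2176 in U937, 1889 in Jurkat and 3481 in BJAB. The 2 most abundant loading genes by mean TPM were CALR, which encodes the chaperone calreticulin, and PDIA3, which encodes the disulfide isomerase ERp57. In Jurkat, CALR was at 908 and 999 TPM untreated and 590.2 and 477 stimulated, and PDIA3 at 279.7 and 234 untreated and 311 and 352 stimulated.

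Of 12 regulators of class I genes, none was called after LPS by limma, beside 0.167% of all tested genes in THP-1 and 0.0278% in U937. At an unadjusted p under 0.05 there were 2 in THP-1 and 0 in U937, beside 522 and 2176 of all 14398 tested genes. In stimulated Jurkat 1 of 12 was called, beside 4.87% of all tested genes. This was NFKB1, which encodes the NF-kB precursor p105. It rose from 11.8 and 10.7 TPM to 47.8 and 53.8 TPM (log2 difference 2.08 ± 0.32, adjusted p = 0.00206). In stimulated BJAB 4 of 12 were called, beside 6.40% of all tested genes. NFKB1 rose from 5.18 and 4.47 TPM to 29.4 and 15.2 TPM (1.93 ± 0.32, adjusted p = 0.00479). IRF9, the DNA-binding part of the interferon-activated complex ISGF3, fell from 77.0 and 73.2 TPM to 10.4 and 21.7 TPM (-2.24 ± 0.42, adjusted p = 0.00957). IRF2, a repressor or activator of interferon-responsive genes, fell from 23.5 and 25.8 TPM to 3.47 and 6.72 TPM (-2.12, adjusted p = 0.00343). CIITA, the class II coactivator, fell from 2.54 and 1.80 TPM to 0.163 and 0.458 TPM (-1.28, adjusted p = 0.0161). Without the first stimulated library of both U937 and BJAB, more of them were called in Jurkat and in BJAB. The share over all tested genes is not given for that fit.

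The responses of 3 of the 12 regulators differed between Jurkat and BJAB, beside 5.24% of all tested genes. IRF9 (difference in response 3.32 ± 0.60, adjusted p = 0.00622) and IRF2 (2.92, adjusted p = 0.00352) fell in BJAB, and in stimulated Jurkat stood at 16.6 and 21.1 TPM for IRF9 (untreated 8.79 and 7.86) and 44.5 and 41.0 TPM for IRF2 (untreated 22.8 and 25.8). NLRC5 differed the other way (-2.65 ± 0.69, adjusted p = 0.0491), close to the threshold. In limma neither response of NLRC5 passed alone (-0.95 in Jurkat, adjusted p = 0.481, and 1.70 in BJAB, adjusted p = 0.0615). It was at 11.2 and 10.7 TPM in untreated and 4.64 and 5.78 TPM in stimulated Jurkat, and at 8.85 and 13.1 TPM in untreated and 21.4 and 64.6 TPM in stimulated BJAB. The interferon genes IFNB1 and IFNA1 were at 0 in all 16 libraries. IFNG and IFNL1 were above 0 only in the first stimulated Jurkat library, at 0.495 and 0.699 TPM. None of the 4 interferon genes passed the filter.

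Among the class I like genes, which share the fold without presenting peptides in the classical way, 1 of 7 tested was called in BJAB and 0 in the other stimulations, with 1 at an unadjusted p under 0.05 in Jurkat. Over all tested genes, 6.40% were called in BJAB, and 1889 of 14398 had an unadjusted p under 0.05 in Jurkat. CD1D, a lipid-presenting molecule, fell in BJAB (-1.66 ± 0.39, adjusted p = 0.0293). Levels before stimulation follow for 3 genes of these lists. Other listed genes also passed between untreated lines, among them the class I like AZGP1 and CD1D for Jurkat minus BJAB. ERAP2, an aminopeptidase that trims peptides in the endoplasmic reticulum, was at 46.4 and 41.1 TPM in Jurkat, 11.3 and 9.13 in BJAB, 1.60 and 1.21 in THP-1 and 0.981 and 1.40 in U937. Jurkat was higher than BJAB (2.00 ± 0.31, adjusted p = 0.000332). PSMB10, the remaining immunoproteasome subunit, was at 754 and 668 TPM in THP-1, above U937 (169.9 and 222), Jurkat (275 and 328) and BJAB (171 and 159), and all 3 differences from THP-1 passed the threshold. Like PSMB8 it was highest in THP-1, and its TPM was above those of PSMB8 and PSMB9 in every line. How many reads each of these genes lost for not aligning uniquely was not tested, and levels of different genes are compared with that limit. IRF1, an activator of class I and TAP1 transcription, was at 77.7 and 68.2 TPM in Jurkat, and higher there than in THP-1, U937 and BJAB (Jurkat minus BJAB 2.22 ± 0.57, adjusted p = 0.0106).

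Across the 8 group means of log2(TPM + 1), the members did not share one profile. TAP1 and TAP2 were closest (Pearson r = 0.89), followed by HLA-E and PSMB8 (0.84) and TAP2 and PSMB8 (0.80). HLA-B went against HLA-F (-0.64) and TAP1 (-0.62). Nearly all HLA-F reads were from Jurkat, so the HLA-F profile mainly sets Jurkat apart from the other lines, and its value with HLA-B restates that. These values describe 8 points, 2 for each line, and the points share the difference between lines. The 5 other genes most like the mean standardised profile of the members, among 9421 candidates, were CDKL1 (r = 0.99), LUZP1 (0.99), NOTCH2NL (0.99), TTC39C (0.98) and TMEM35B (0.98). For single members the closest genes were PDIA3P1 for HLA-B (0.95), TMOD3 for HLA-C (0.98), EIF4G3 for HLA-E (0.97), KCNK1 for HLA-F (1.00) and TMEM60 for B2M (0.98). They were HIPK1 for TAP1 (0.99), PROS1 for TAP2 (0.99), PRDX6 for PSMB8 (0.99) and CCNK for PSMB9 (0.98). These are the highest of many candidates, given as a description only. The match for HLA-F rests on its reads in Jurkat, and the mean profile of the members includes HLA-F.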

How the data were processed

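RNA from 16 libraries of 4 cell lines was sequenced as SmartSeq2 libraries primed with oligo-dT, per the labels' protocols. The deposited values are TPM from uniquely aligned reads, 1 table per library; TopHat2 and build hg19 were used, per the submitters' processing notes. The TopHat2 version, read counter and gene annotation were not given in the sources used here. Each library summed to 1000000 TPM. Whole reads were recovered from the TPM steps at a tolerance of 0.001 for 17860 of 19092 genes above 0 (93.5%). In the second LPS library of THP-1 the recovered numbers were all even on the scale of the other libraries, and were divided by 2. PCR reads are not independent molecules, so limits from reads cover counting error only.

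Genes with at least 1 TPM in at least 2 libraries were tested with limma 3.58.1 in R 4.3.3 on log2(TPM + 1), 1 coefficient per group, variance trend, two-sided, Benjamini-Hochberg adjustment, threshold 0.05. There were 12 contrasts: 4 stimulations, 6 pairs of untreated lines and 2 differences of responses. The spread was pooled over all groups (8 residual degrees of freedom, prior 3.18). All 9 members are named. Of each gene list, up to 4 genes past the threshold per stimulation or difference of responses are named, and for the loading list the 2 most abundant. For untreated lines only ERAP2, PSMB10 and IRF1 are named, out of more listed genes that passed. A few more were chosen after their values were seen (PSMB5, PSMB6, the interferon genes and ACTB). The members and lists were chosen with earlier results of these data known. Alternatives were pseudocounts of 0.1 and 5, no filter, a minimum of 5 TPM, other scalings, no trend, library weights, a replicate block, fewer lines and libraries left out.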

Additional observations from a re-analysis of the deposited data

How the results depend on the processing

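Of 108 member values, 1656 alternatives were computed: 1523 stayed on the same side of the threshold, 63 lost the call, 70 gained it and none reversed a called value, while 54 changed sign among values not called in either fit. Counts here include HLA-F, which entered the tests only through Jurkat. The share of all tested genes called is not given for the alternatives, here or above. Whether a count of members exceeds that share therefore cannot be read from it. The count of members called in stimulated Jurkat (2) was 1 with a pseudocount of 0.1, with a minimum of 5 TPM or without trend, 0 with median-of-ratios scaling, and 4 with library weights or without the first stimulated library of both U937 and BJAB. With single libraries left out it was 0 to 2. The replicate block gave 0 of 9 in Jurkat, where the adjusted p was 0.0992 for HLA-B and 0.081 for HLA-F, and ended PSMB8 for THP-1 minus Jurkat (0.0545); the numbers do not pair the libraries, since no label says what they mark and same-numbered libraries of a line deviated together at r = -0.04 to 0.14. For THP-1 minus U937 (2) the count was 1 with a minimum of 5 TPM, 6 with library weights, 7 with the compared lines alone and 6 without the first stimulated library of both U937 and BJAB. With these 2 alternatives, library weights and those libraries left out, U937 minus Jurkat (4) gave 8 and 7, and U937 minus BJAB (4) gave 7 and 7. The count for Jurkat minus BJAB in response (0) was 1 without those libraries. With single libraries left out, the counts ran from 0 to 4 for U937 after LPS, 0 to 3 for stimulated BJAB, 2 to 3 for THP-1 minus Jurkat (6 with all), 3 to 4 for THP-1 minus BJAB (5), 2 to 2 for U937 minus BJAB (4), 0 to 2 for the LPS response and 0 to 3 for Jurkat minus BJAB in response. A group left with 1 library was assumed to vary like the others. The causes of these shifts were not tested. Depth limits HLA-F, with at most 38 reads, and TAP2 in BJAB, with at most 21.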
